A study of Caenorhabditis elegans with 4 samples.

Results

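The arms of chromosome V are its left stretch, with region midpoints below 5.90 Mb, and its right stretch, with midpoints at or above 16.55 Mb. They were chosen by position alone, and no measured value entered the choice. Together they held 656 of the 8121 regions in which RNA polymerase II was found enriched, 343 on the left arm and 313 on the right arm. The centre between them held 693. The material was early embryos of wild-type hermaphrodite Caenorhabditis elegans, strain N2 in its DR subclone, from worms grown at 20 degrees Celsius in liquid culture on bacteria. Chromatin immunoprecipitation with sequencing (ChIP-seq) gave 2 ChIP libraries, precipitated with the mouse monoclonal antibody 8WG16, which binds the C-terminal repeat of the largest polymerase II subunit (AMA-1 in the worm), and 2 input libraries of unprecipitated DNA. The protocol text shared by all 4 libraries names an anti-GFP serum, while the antibody entry of the ChIP libraries names 8WG16. The authors merged all 4 libraries into 1 list, so no value below has a replicate error and no difference could be tested over samples.

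Polymerase II transcribes protein-coding genes, and a ChIP-seq region marks DNA that was bound by it, paused or elongating, in some of the cells collected. The autosomes of C. elegans have a centre with little recombination and many conserved, broadly used genes, flanked by arms with more recombination, more repeats and more chromatin marked by methylated histone H3 lysine 9, which lies near the nuclear envelope. The arms of chromosome V are known for large families of worm-specific genes, among them chemoreceptors of the G protein-coupled kind. Recombination, repeats and genes were not measured here. The gene table at hand belongs to another genome build, so the regions are given by their WormBase WS180 positions and no gene is named. In whole embryos, polymerase on a site in fewer nuclei and less polymerase per nucleus cannot be told apart.

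Each region has a q-value, a p-value of ChIP against input corrected for multiple tests, and all listed q-values are under 0.01. The sources used here do not give the depth of the libraries. The read numbers behind each q-value could be recovered from it: 8116 of the 8121 regions, and all 1349 of chromosome V, matched exactly 1 pair of ChIP and input reads. The same step gave 18572 regions tested by the authors, of which the listed ones are 43.7%. How many of the tested regions lay on the arms is unknown. Input reads are given as the authors' test used them, after any scaling. Below, fold means the ChIP reads of a region divided by its input reads.

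Taken as a whole, the arms carried polymerase II regions at about the density of the centre. The left arm had 58.2 regions per Mb over 5.89 Mb (exact 95% Poisson interval 52.2 to 64.7), the right arm had 72.8 per Mb over 4.30 Mb (65.0 to 81.4), and the centre had 65.1 per Mb over 10.65 Mb (60.3 to 70.1). The intervals cover counting error only and treat regions as independent. The right arm was highest and the left arm lowest. The interval of the centre overlapped those of both arms, while the intervals of the arms did not overlap each other. In covered length the order was another one. Regions covered 6.15% of the left arm, 5.60% of the right arm and 7.27% of the centre. The right arm thus had the most regions per Mb of the 3 stretches and the smallest covered share. Its excess in number over the centre, 7.78 regions per Mb, was −0.99 in the stronger 50% of the list and 1.09 when neighbours within 1000 bp were merged.

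On both arms the regions were spread less evenly than in the centre. Of the complete 100 kb windows, 14 of 59 held no region midpoint on the left arm (23.7%) and 10 of 42 on the right arm (23.8%), against 9 of 106 in the centre (8.49%). At the other extreme, 6 left-arm windows (10.2%) and 5 right-arm windows (11.9%) held 15 or more regions, against 5 centre windows (4.72%). Windows with 4 to 9 regions, which made up 50.9% of the centre, were 23.7% of the left arm and 31.0% of the right arm. The variance of the window counts was 7.54 times their mean on the left arm and 8.03 times on the right arm, against 3.11 times in the centre. Of the regions in complete windows, the fullest 6 windows of the left arm held 36.2% of 343 and the fullest 4 of the right arm held 32.2% of 304. The fullest 11 of the centre held 24.6% of 687. These are the fullest 10% of the windows of each stretch, rounded to whole windows. Neighbouring windows are not independent, and no test was made.

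**Figure D1:**
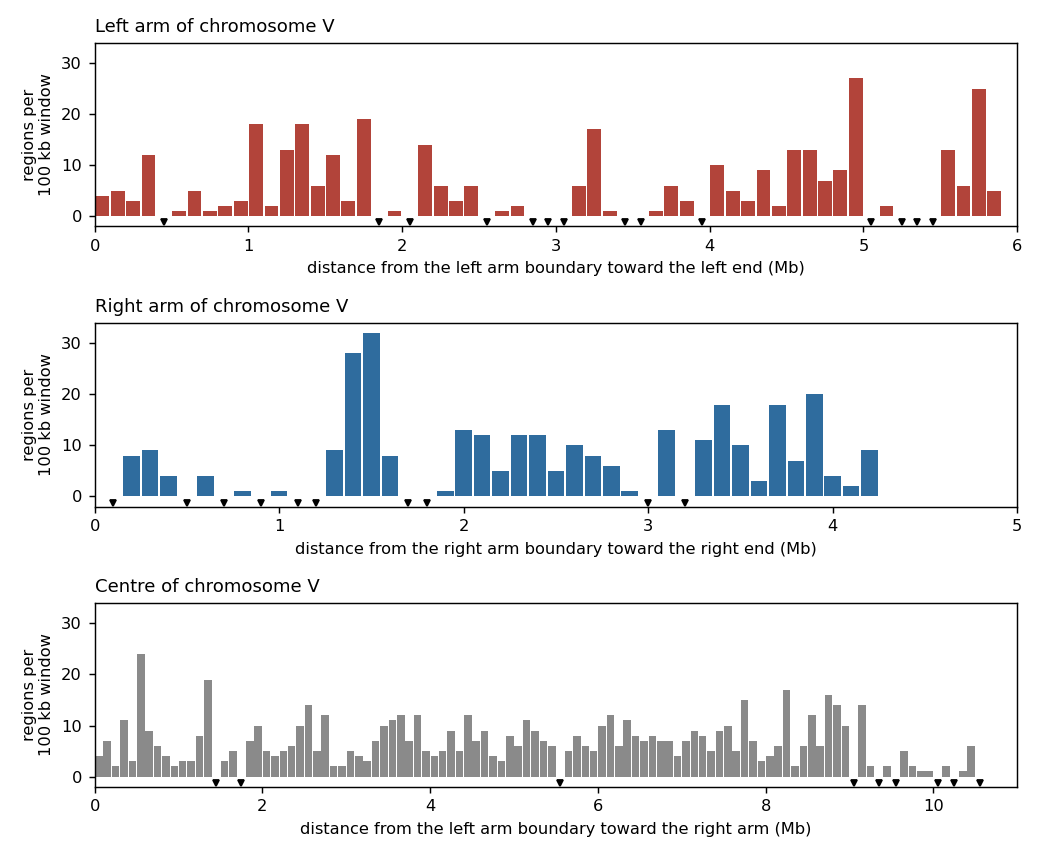
Number of polymerase II regions in each complete 100 kb window of chromosome V, against the distance of the window from the arm boundary in Mb; black triangles mark windows with no region, and the centre has its own distance scale. The right arm holds the fullest window, with 32 regions, and the left arm reaches 27, while the centre is more even.

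**Figure D2:**
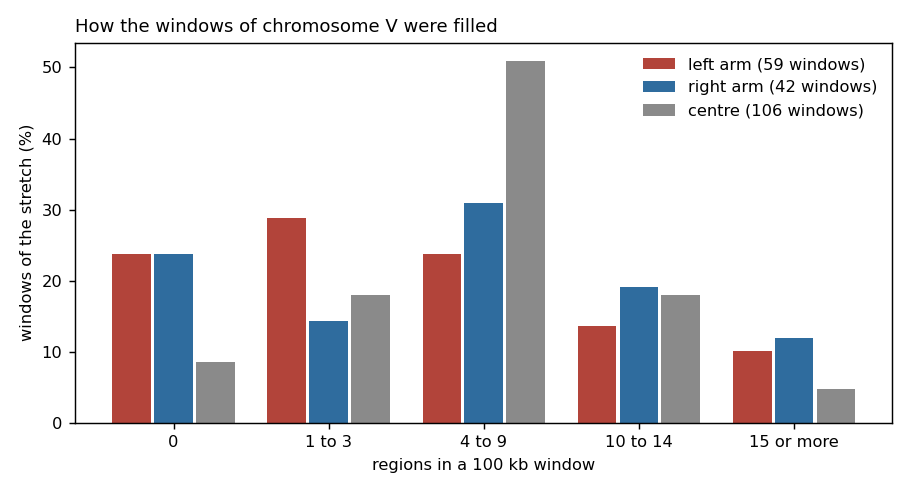
Share of the complete 100 kb windows of each stretch, in percent, by the number of regions in the window. Windows with 4 to 9 regions make up 50.9% of the centre, and empty windows make up 23.7% of the left arm and 23.8% of the right arm.

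Long stretches without any listed region lay on both arms. The longest of the left arm ran from 2708208 to 3190782, 483 kb, and was the longest between neighbouring regions on any of the 6 chromosomes. The left arm also had empty stretches from 364217 to 723328 (359 kb), from 2282037 to 2595104 (313 kb), from 3778896 to 3979754 (201 kb) and from 5315206 to 5501779 (187 kb). On the right arm the longest were from 18114257 to 18497929 (384 kb) and from 17538852 to 17858039 (319 kb), followed by 19643470 to 19877336 (234 kb), 17315583 to 17538160 (223 kb) and 17155675 to 17314950 (159 kb). Each arm had 4 stretches of 200 kb or more, and the centre had 1, from 15191745 to 15392254 (201 kb). Empty stretches of 100 kb or more numbered 12 on the left arm and took up 42.9% of it. On the right arm 11 such stretches took up 49.5%, and in the centre 19 took up 23.9%. Elsewhere, chromosomes I and II had 1 stretch of 200 kb or more each, III had none, IV had 3 and X had 12. An empty stretch is one without a listed region. The list starts at rank 48, the positions of the 47 stronger regions are unknown, and whether an empty stretch holds one of them, or lacked polymerase or mappable reads, was not tested.

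Between the empty stretches the regions formed islands. When stretches were divided at every gap of 100 kb or more, the left arm fell into 13 islands covering 3.31 Mb and the right arm into 12 covering 2.17 Mb. The largest island of the left arm ran from 4133236 to 5315205 with 103 regions in 1182 kb, and that of the right arm from 18497930 to 19348232 with 84 regions in 850 kb. The centre had 20 islands, and its largest alone, from 12179167 to 15191744, held 245 of the 693 regions. Islands of only 1 or 2 regions numbered 2 on the left arm, 3 on the right arm and 6 in the centre. On each stretch these small islands held few of the regions.

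The densest window of either arm lay on the right arm. From 18000001 to 18100000 there were 32 regions, covering 32.3% of the window, with widths of 29 to 5015 bp and a best q-value of 1.37e-93. Of these, 15 had a q-value below 1e-10, a limit passed by 28.1% of all listed regions, and 27 had a fold of 3 or more, which 28.3% of all listed regions with read numbers had. The window before it, from 17900001 to 18000000, held 28 regions, of which 15 had a fold of 3 or more, and a best q-value of 9.97e-125. Together with their neighbours these windows formed an island of 256 kb, from 17858040 to 18114256, with 77 regions, or 300.5 per Mb. It lay between the empty stretches of 319 and 384 kb, the 2 longest of the right arm. Its median fold was 3.60 (quartiles 2.86 and 4.75). The next densest window of the right arm, from 20400001 to 20500000, held 20 regions with a median fold of 2.93.

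On the left arm the densest window was from 900001 to 1000000, with 27 regions, of which 8 had a q-value below 1e-10 and 15 a fold of 3 or more. It belonged to an island of 361 kb, from 910502 to 1271397, with 56 regions (155.2 per Mb) and a median fold of 2.76. The window from 100001 to 200000, close to the left end of the chromosome, held 25 regions. These were weaker, with a median fold of 1.96, a median q-value of 0.000139 and 4 regions with q below 1e-10. The window from 4100001 to 4200000, held 19 regions and a median fold of 2.46. In the centre the densest window, from 6400001 to 6500000, held 24 regions with a median fold of 2.45.

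Within the islands the regions often followed each other closely. Gaps under 1000 bp made up 48.8% of the 342 gaps of the left arm and 49.0% of the 312 of the right arm, against 44.5% of the 692 of the centre. The shortest gap was 200 bp on the left arm, 204 bp on the right arm and also 200 bp in the centre. Whether the authors' software joined regions closer than this is not given by the sources used here. Runs joined by such gaps held 70.0% of the left-arm regions, 70.9% of the right-arm regions and 67.1% of the centre's. Runs of 5 or more held 27.4% on the left arm and 24.6% on the right arm, against 17.0% in the centre. The longest run of the left arm had 13 regions in 12.5 kb, from 1371587 to 1384092. Its members were all modest, between 146 and 1088 bp wide, with folds from 1.73 to 3.78. The longest of the right arm, from 16798013 to 16816570, had 11 regions in 18.6 kb with widths up to 4196 bp, and it covered 73.7% of its length. Over their summed reads these runs had folds of 2.59 and 3.18. On the right arm a run of 10 regions from 18064928 to 18080056 had a fold of 3.77, and another of 8 from 18601112 to 18614853 had 4.58. On the left arm 4 runs of 7 regions followed the longest. That from 990152 to 999686, in the densest window of the arm, had a fold of 4.67, the highest of these runs. The run from 1568313 to 1580861 had 2.86, that from 3746766 to 3759646 had 2.29 and that from 4180418 to 4191885 had 2.54. Whether the members of a run are separate sites or pieces of 1 bound stretch was not tested.

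Right-arm regions were the narrowest of the chromosome. The median width was 600 bp on the left arm (quartiles 248.5 and 1291), 433 bp on the right arm (190 and 837) and 714 bp in the centre (390 and 1358). With regions treated as independent, the 95% order-statistic interval of the median was 497 to 686 bp on the left arm and 344 to 503 bp on the right arm, against 656 to 783 bp in the centre. The interval of the right arm met that of the left arm at its edge and lay below that of the centre. Regions under 200 bp made up 20.7% of the left arm (exact Clopper-Pearson 95% interval 16.5 to 25.4) and 27.5% of the right arm (22.6 to 32.8), against 9.52% of the centre (7.44 to 11.96). In the whole list their share was 21.7%, and on chromosomes I to IV it was 24.0%, so the low share was that of the centre. At the wide end, 27 left-arm regions (7.87%) and 16 right-arm regions (5.11%) spanned 3 kb or more, against 43 in the centre (6.20%). These wide regions carried 35.9% of the covered length of the left arm, 29.8% of the right arm and 27.3% of the centre. Against the centre, the left arm therefore combined a larger share of narrow regions with a share of wide ones that was as high. Its share of narrow regions was near that of the whole list. The difference in median width of the left arm from the centre, −114 bp, was 75.5 bp in the stronger 50% of the list and 2 bp when neighbours within 1000 bp were merged. Against all 8121 listed regions, with a median of 506 bp, the left arm was wider and the right arm narrower.

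By q-value the typical arm region was weaker than the typical centre region, while the shares of strong regions differed little. The median q-value was 1.74e-05 on the left arm and 1.95e-05 on the right arm, against 2.07e-06 in the centre. Expressed as −log10 q, the medians were 4.76, 4.71 and 5.68 in the same order, with 95% order-statistic intervals of 4.33 to 5.47, 4.19 to 5.40 and 4.99 to 6.14. These intervals also treat regions as independent. They overlapped, and within the stronger 50% of the list the left arm's median was 2.30 above the centre's. A q-value below 1e-10 was reached by 104 left-arm regions (30.3%), 82 right-arm regions (26.2%) and 222 centre regions (32.0%), near the 28.1% of the whole list. A q-value above 0.001, close to the limit of the list, was found for 26.2% on the left arm, 26.5% on the right arm and 26.3% in the centre. Wider regions had lower q-values in each stretch, with a Spearman rho between width and −log10 q of 0.77 over 343 left-arm regions, 0.73 over 313 right-arm regions and 0.74 over 693 centre regions. A wider region holds more reads, so this is a description of the list.

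Of the listed arm regions, that with the lowest q-value lay on the left arm, from 4498921 to 4511110. It spanned 12.2 kb, held 3318 ChIP reads and 1053 input reads, and stood at place 13 of the list with q = 1.25e-267. Its fold of 3.15 (exact 95% interval 2.94 to 3.38) was moderate, and its 4371 reads of both kinds were the most of any arm region. Only 255 bp behind it, a region of 1222 bp from 4511366 to 4512587 held 282 ChIP reads and 33 input reads and had a fold of 8.55 (5.95 to 12.7), the highest lower limit of the left arm. The second by q-value, from 1803912 to 1806596, was compact and high at once, with 1004 ChIP reads and 142 input reads in 2685 bp, a fold of 7.07 (5.93 to 8.49) and q = 2.06e-158. It stood alone, 35235 bp after the previous region and 8749 bp before the next.

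The next left-arm regions by q-value were broad. The region from 4957346 to 4963433 had 1838 ChIP reads against 557 of the input (fold 3.30, 2.9997 to 3.63). From 3772061 to 3777282 there were 1405 ChIP reads against 380 (fold 3.697, 3.30 to 4.15). From 1473671 to 1480679 there were 1678 against 562 (fold 2.99, 2.71 to 3.29). A further 2 broad regions were wide without being high. They ran from 4301400 to 4310644, 9245 bp at a fold of 2.09 (1.94 to 2.27), and from 5826791 to 5833917, 7127 bp at a fold of 2.23 (2.04 to 2.44). The 5 highest lower limits of the fold on the arm included 3 more regions. The first, from 2698874 to 2699725, had 192 ChIP reads against 26 of the input (7.38, 4.89 to 11.6). Another, from 993961 to 997999, had 890 against 158 (5.63, 4.75 to 6.71), and it lay in the densest window of the arm. The last, from 358454 to 360463, had 433 against 73 (5.93, 4.62 to 7.71), near the end of an island that the empty stretch of 359 kb follows.

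On the right arm no listed region came near the first of the left arm by q-value. Its first, from 20391273 to 20394474, stood at place 97 of the list with q = 2.34e-131, and held 823 ChIP reads and 114 input reads in 3202 bp, a fold of 7.22 (5.93 to 8.86). A region of 996 bp close by, from 20397014 to 20398009, had a fold of 7.68 (5.16 to 11.8). The next 2 by q-value lay close together in the dense island, with 2 other regions between them. From 17935268 to 17939814 there were 1084 ChIP reads against 244 of the input (fold 4.44, 3.86 to 5.13), and from 17942167 to 17949470 there were 1512 against 484 (fold 3.12, 2.82 to 3.47). That last region, at 7304 bp, was also the widest of the arm. The region from 18602725 to 18605906 followed, with 822 ChIP reads against 144 of the input (fold 5.71, 4.78 to 6.86), and then that from 16801471 to 16805666, with 888 against 179 (fold 4.96, 4.22 to 5.86).

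The highest lower limit of the fold on the right arm belonged to a region of 2012 bp in the densest window, from 18041842 to 18043853. It held 485 ChIP reads and 54 input reads, a fold of 8.98 (6.77 to 12.1). It was followed by the region from 20391273, the first of the arm by q-value. The region from 19640278 to 19641244, with 259 ChIP reads against 30, had a fold of 8.63 (5.90 to 13.1), and it lay in the island that ends at the empty stretch of 234 kb. The region from 17967677 to 17969547, with 339 against 42, had a fold of 8.07 (5.85 to 11.4). In the centre, the highest lower limit was above those of both arms, in the region from 9088637 to 9089256 with 479 ChIP reads against 21 of the input (fold 22.8, 14.8 to 37.2). Among the widest right-arm regions, that from 20666332 to 20673598 had 1409 ChIP reads against 672 of the input and a fold of only 2.10 (1.91 to 2.30). The other 3 were higher. They ran from 19991438 to 19997647 with a fold of 2.78 (2.50 to 3.08), from 18028177 to 18033191, in the densest window, with 3.52 (3.09 to 4.03), and from 20751877 to 20756627 with 2.71 (2.39 to 3.08).

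Arm regions, those of the right arm most of all, had a higher fold of ChIP over input than centre regions. The median fold was 2.47 on the left arm (quartiles 2.05 and 3.31) and 3.10 on the right arm (2.39 and 4.20), against 2.21 in the centre (1.84 and 2.74) and 2.38 in the whole list. With regions treated as independent, the 95% order-statistic intervals of the medians, 2.35 to 2.60, 2.95 to 3.21 and 2.14 to 2.25, did not overlap. Most regions lay in runs and may not be independent. These intervals, and those of the shares that follow, may thus be too narrow and are no test. A fold of 3 or more was found for 114 left-arm regions (33.2%, exact 95% interval 28.3 to 38.5) and 172 right-arm regions (55.0%, 49.3 to 60.6), against 124 centre regions (17.9%, 15.1 to 21.0). The share was 28.3% of all listed regions with read numbers and 29.4% on chromosomes I to IV, whose median fold was 2.43. By both measures the left arm was nearer to chromosomes I to IV than the centre was, and the centre was low. Of the 1000 listed regions with the highest lower limit of the fold, 68 were from the right arm, or 21.7% of its regions, while these 1000 are 12.3% of the whole list. The left arm gave 45, or 13.1% of its regions, and the centre 67, or 9.67%. By q-value, 42 right-arm regions were among the first 1000, or 13.4% of its regions, with 48 of the left arm, or 13.994%, and 97 of the centre, or 13.997%. The right arm was thus prominent by fold and not by q-value, which also depends on the number of reads. Its regions held a median of 104 reads of both kinds, against 154 on the left arm and 208 in the centre.

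Per kb of region, both ChIP and input reads were lower on the arms than in the centre, and input reads by the larger share. Over all regions there were 206 ChIP and 78.9 input reads per kb of region on the left arm, 193 and 64.1 on the right arm, and 213 and 89.9 in the centre. In regions of 500 bp or more, where the length is less dominated by the edges, the median was 76.5 input reads per kb on the left arm and 57.9 on the right arm, against 90.5 in the centre. ChIP reads in the same regions were 178, 171 and 190 per kb. The 4 bins of 1 Mb that lay in the right arm, at 51.7 to 71.0 input reads per kb, were below each of the 10 centre bins, at 80.3 to 97.0. The 5 left-arm bins ran from 65.9 to 85.0. Both read numbers are known for listed regions alone, and read depth outside them was not measured. The part of input depth in the higher fold was not tested.

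**Figure D3:**
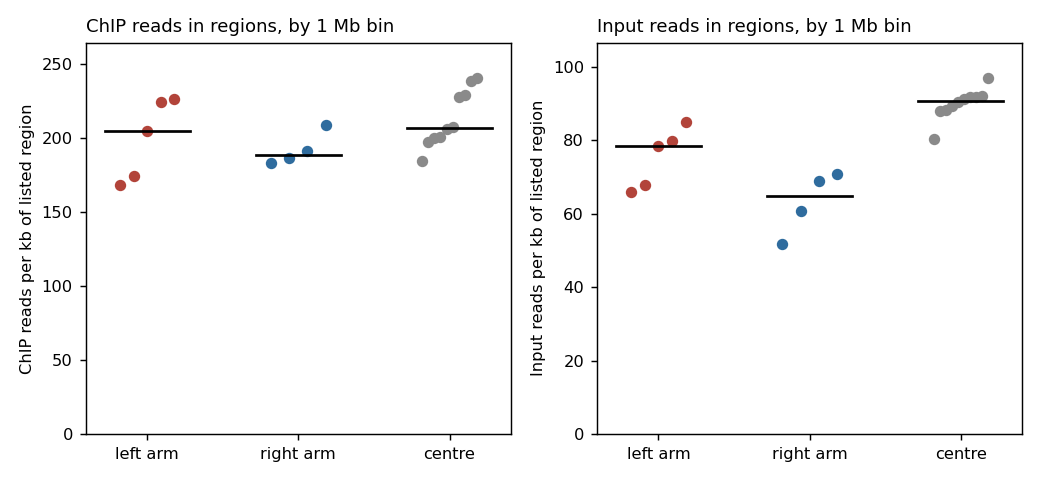
ChIP reads (left panel) and input reads (right panel) per kb of listed region in each 1 Mb bin of chromosome V that lies wholly in an arm or in the centre; each point is a bin, sorted by value, and the line is the median. Input reads of the right-arm bins lie between 51.7 and 71.0 per kb, below every centre bin, while the ChIP values overlap.

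The higher fold of the arms held at each width. Among regions under 200 bp the median fold was 3.13 on the left arm and 3.59 on the right arm, against 2.73 in the centre. From 200 to under 500 bp it was 2.44 and 2.74, against 2.11. From 500 to under 1000 bp the left arm, at 2.20, was close to the centre at 2.11, and the right arm had 2.88. From 1000 to under 3000 bp the values were 2.34 and 3.34, against 2.13, and at 3000 bp or more 2.90 and 3.23, against 2.74. The left arm thus stayed above the centre by small amounts in every class, and the right arm by larger ones. Across regions, wider ones had a slightly lower fold, with a Spearman rho of −0.19 over 343 left-arm regions, −0.20 over 313 right-arm regions and −0.07 over 693 centre regions. A narrow region needs a high fold to pass the q-value limit, so that low folds at small widths cannot be seen. A region with fewer reads likewise needs a higher fold at the same width. From 1000 to under 3000 bp the median input reads were 115.5 on the left arm, 80.5 on the right arm and 140.5 in the centre. The median ChIP reads were 293, 242.5 and 293. The part of this limit in the differences within a class was not tested.

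**Figure D4:**
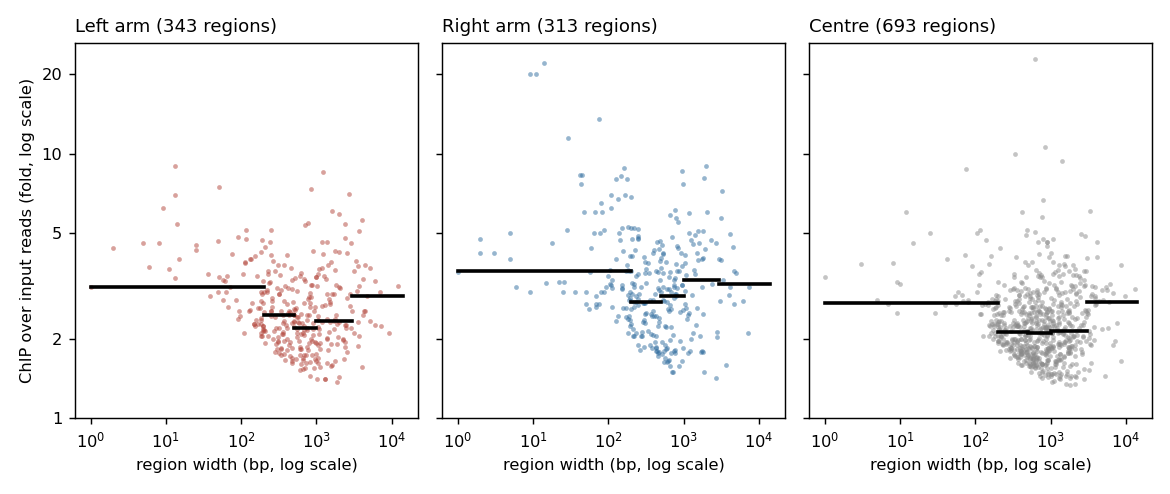
Fold of ChIP over input reads against region width for the regions of the left arm, the right arm and the centre, both axes on a log scale; each point is a region and the black lines are the medians of 5 width classes. In the class of 1000 to under 3000 bp the medians are 2.34, 3.34 and 2.13.

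Along each arm the fold was not even. In 1 Mb bins of the left arm the median fold was between 2.18, from 3 to 4 Mb, and 2.66, in the bin at the left end. On the right arm it was 3.10 from 17 to 18 Mb, 3.57 from 18 to 19 Mb, 2.76 from 19 to 20 Mb and 3 in the bin at the right end. The bin from 18 to 19 Mb also had the most regions of the arm, at 95, and of all 1 Mb bins of the chromosome it had the lowest median width, 305 bp, and the fewest input reads per kb, 51.7. Of its regions 70 had a fold of 3 or more. The bins wholly in the centre ran from 1.98 to 2.39, and the lowest bin wholly in the right arm was above all of them. The bin from 16 to 17 Mb, which the boundary cuts and which holds the first part of the arm, had 2.33. On the left arm the bin of the lowest fold, from 3 to 4 Mb, had 67.9 input reads per kb, and the bin from 4 to 5 Mb had the most, 85.0, with a median fold of 2.55.

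The right boundary did not mark a step in density. The sparse stretch of this side began inside the centre. From 15392255 to 16544917, the last part of the centre, there were 26 regions, or 22.6 per Mb, with a median fold of 2.54. In the inner part of the right arm, from 16549671 to 17538851, there were 30 regions, or 30.3 per Mb, with a median fold of 2.26. Beyond the empty stretch of 319 kb, from 17858040 to the last listed base at 20846515, the arm held 283 regions, or 94.7 per Mb, with a median fold of 3.13, of which 164 had a fold of 3 or more. The rest of the centre, from 5942841 to 15191744, had 72.1 regions per Mb and a median fold of 2.19. These limits were set after the values were seen. Of these 4 stretches the outer part of the right arm had the highest density and the highest median fold, while the median fold of the inner part lay between those of the 2 parts of the centre.

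At the boundaries themselves, the last left-arm region ran from 5845639 to 5846310, with a fold of 1.53 (1.13 to 2.09) and q = 0.00617, and the first centre region from 5942841 to 5944809, with a fold of 3.09 (2.51 to 3.82) and q = 1.66e-30. The 96.5 kb between them held none. On the other side, the last centre region ran from 16544801 to 16544917 (fold 5.17, 2.12 to 15.1, q = 7.80e-05). The first right-arm region, from 16549671 to 16550619, had a fold of 3.18 (2.25 to 4.57) and q = 3.32e-12, and its midpoint lay just past 16.55 Mb. At the tips of the list, the first region of the left arm, from 5389 to 9384, had 1044 ChIP reads and 671 input reads and a low fold of 1.56 (1.41 to 1.72). Near the right tip, the region from 20840804 to 20843893 had 702 and 254 reads and a fold of 2.76 (2.39 to 3.20).

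By direction alone, higher fold, narrower regions and fewer input reads were shared by the ends of all chromosomes. For this comparison the other 5 chromosomes were cut at the same shares of their span as V, with 28.3% as the left end and 20.6% as the right end, which are not their known arm limits. In 12 of 12 ends the median fold was above that of the chromosome's own centre, the median width was below it, and there were fewer input reads per kb. Input reads are the divisor of the fold, so these 2 are not separate traits. The differences have no error to set them against. On the right arm of V the difference in median fold, end minus centre, was 0.89, and on the left arm it was 0.26. In the 8 ends of chromosomes I to IV it was between 0.28 and 0.67, and on X it was 0.13 and 0.04. The median fold of 3.10 on the right arm of V was the highest of the 12 ends, and that of the left arm, 2.47, was the ninth. Input reads per kb were lowest on the right arm of V, at 64.1, and next lowest on its left arm, at 78.9, while the other ends ran from 82.9 to 112. The centre of V, at 89.9, was also the lowest of the centres, the others running from 104 to 119. Divided by its own centre, the right arm was at 0.71 and the left arm at 0.88, against 0.74 to 0.91 in the ends of chromosomes I to IV. Whether the input was scaled alike on all chromosomes is unknown, and these orders of fold and input reads across chromosomes depend on it.

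In number of regions the arms of V were low among the autosome ends. The centre of V, at 65.1 per Mb, was likewise the lowest of the autosome centres, the others running from 69.2 to 122. Listing of a region rests on its input reads, so region and window counts across chromosomes also depend on the unknown scaling of the input. The left arm with 58.2 per Mb and the right arm with 72.8 per Mb were above the right end of chromosome IV, at 49.5, and the ends of X, at 30.5 and 28.6, and below the other 7 ends, at 88.1 to 135. Their patchiness was the highest, with a variance of window counts over the mean of 7.54 and 8.03, followed by the right end of chromosome I at 7.40, while the lowest of the 12 was the right end of X at 1.30. The share of empty windows, 23.7% and 23.8%, was also above that of any other end, the next being the right end of chromosome IV at 20.0%. The X ends were sparse, with a variance over mean of 1.68 and 1.30 and empty windows of 18.4% and 13.9%. The arms of V had empty windows, windows of 15 or more regions and many between these. With 6 chromosomes that are not replicate samples, none of these orders was tested, and the order of neighbours that lie as close as 7.54 and 7.40 has no error to set it against.

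**Figure D5:**
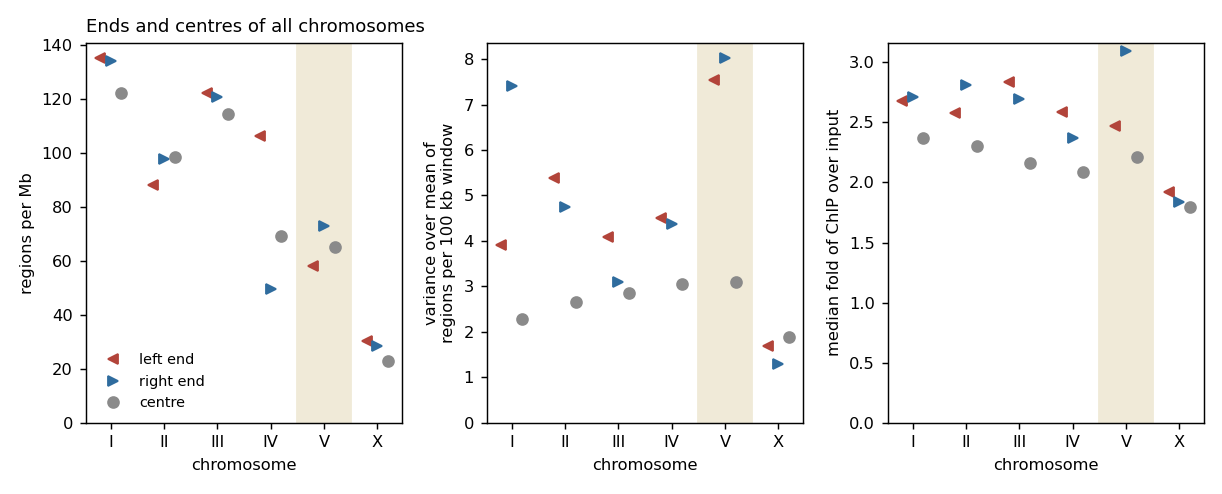
Regions per Mb, variance over mean of the regions per 100 kb window, and median fold of ChIP over input, for the left end, the right end and the centre of each chromosome; the arms of V are on the shaded band. The arms of V have the highest variance over mean, 7.54 and 8.03, and the right arm has the highest median fold, 3.10.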

How the data were processed

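The deposited data are 1 list of regions that combines 2 ChIP and 2 input libraries. Per the file headers, coordinates are those of WormBase WS180, and the source field is PeakSeq, software that scores ChIP reads in a region against those of the input. The sources used here give neither its version nor the mapper, filters, input scaling or handling of replicates. The authors' deposited value is a q-value. Positions are 1-based, as in the file, and a region belongs to the stretch of its midpoint. Stretch lengths run between the first and last listed base of a chromosome.

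Where neighbouring lines shared a p-value (2665 pairs), the fall of q gave their ranks. The first line had rank 48, so 47 stronger ones are not analysed here, and every ranking is among listed regions. Each q multiplied by its rank, then divided by 18572 tests, was matched to exact binomial tails at probability 0.5, to within 1e-09 in ln p. With 1 test more or fewer, 0 regions matched. On a simulated list of 10989 regions the same steps returned the first rank and the read numbers of all 10989. That list was made with the same form of test, so it checks the steps and cannot show the form of the authors' test. Its regions also held fewer reads than the largest listed ones. Intervals of the fold are exact (Clopper-Pearson, 95%), treat both read numbers as raw counts and cover counting error only, as PCR copies cannot be told from separate molecules.

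Regions named are, per arm, the 5 lowest by q, the 5 widest and the 5 with the highest lower limit of the fold, the 5 longest empty stretches, the 3 densest windows and the 3 longest runs with ties, with those at the boundaries; the regions at the chromosome tips and the parts of the right arm were added after the values were seen. Members, lists and measures were chosen with earlier results of these data known. No test was made, as the list has no values per library. Python 3.11.15, NumPy 2.4.6, pandas 2.3.3, SciPy 1.17.1 and Matplotlib 3.10.9 were used.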

Additional observations from a re-analysis of the deposited data

How the results depend on the processing

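Of 53 alternatives to 10 differences between an arm and the centre of chromosome V, 48 kept the direction, and 40 also moved by no more than 50% of the length of the arm value's 95% interval. For the right arm's density this limit was 8.19 regions per Mb, above the difference itself, so losing nearly all of it counted as within the limit. For the left arm's density the limit was 6.25 and the difference −6.88. The count of 40 therefore does not show that the sizes held. The density of the right arm, 7.78 regions per Mb above the centre, became −0.99 per Mb in the stronger 50% of the list and −16.7 kb per Mb in covered length, and it was 1.09 per Mb after merging neighbours within 1000 bp. In covered length, which has another unit and so no such interval, the left arm was at −11.2 kb per Mb. The median width of the left arm, 114 bp below the centre (−114), became 75.5 bp in the stronger 50% and 2 bp after merging neighbours within 1000 bp. Its median −log10 q, −0.93 against the centre, became 2.30 in the stronger 50%, a set chosen by q. For these reversals the cause was not tested. The stronger 50% also moved the right arm's width difference from −281 to −372.5 bp and its fold difference from 0.89 to 1.11. By width class, chosen after seeing the data, the fold difference of the left arm was 0.40 under 200 bp and 0.094 from 500 to under 1000 bp. That of the right arm was 0.62 from 200 to under 500 bp, 1.21 from 1000 to under 3000 bp and 0.48 at 3000 bp or more. Without the island of 77 regions, also chosen after seeing the data, it was 0.77. The excess of empty windows over the centre kept its direction with windows of 50 kb and of 200 kb and in the stronger 50%. On the left arm it was 15.2 percentage points, and 18.0, 6.90 and 21.8 in these settings. On the right arm it was 15.3, and 17.9, 9.52 and 23.0. With windows of 200 kb it rested on 2 of 29 left-arm and 2 of 21 right-arm windows, against 0 of 52 in the centre. The limits of 11.5 and 13.7 points were wide beside these differences. Moving both boundaries 0.5 Mb inward left the right arm's density difference at 0.30 per Mb, and 0.5 Mb outward it was 12.5. No paired analysis was possible because both replicates are merged in the deposited list, which also means that no replicate could be left out. Whether stretches without a region lacked enrichment or reads is unknown, as is the depth of the libraries.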
